A study of Oryza sativa Japonica Group with 6 samples.

Results

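The Aux/IAA family of rice, IAA1 to IAA31, was followed in 14-day-old seedlings of the mutant osino80 and of wild type (WT). The members were 31 loci given by their published locus numbers, on 10 chromosomes; 30 of them were analysed, out of 55801 loci in all, and IAA5 (LOC_Os01g48450) was not analysed here. Both groups were cultivar Nipponbare, grown without treatment in chambers under what the labels call an SD photoperiod. The 3 osino80 libraries carry the allele osino80-2 of OsINO80, which encodes the motor subunit of a chromatin remodeller of the INO80 type, and the 3 WT libraries are labelled wild-type. How the allele was made, and whether the libraries of a genotype came from separate plants, is not stated in the labels. The p-values therefore speak only to the variation among these 6 libraries, part or all of which may be technical.

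Aux/IAA proteins are short-lived nuclear repressors of the auxin response. They bind auxin response factors (ARFs) at target genes and bring in TOPLESS-type corepressors. Auxin joins them to F-box receptors of the TIR1/AFB family, which mark them for degradation and so free the ARFs, and many Aux/IAA genes are themselves switched on early by auxin.

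Counts totalled 61881971 to 66097710 in the osino80 libraries and 61426662 to 73293481 in the WT libraries. Counts are also given as CPM, counts per 1000000 scaled by TMM, and levels of different genes are compared per length in the deposited TPM (transcripts per 1000000). The transcript of OsINO80 (taken as LOC_Os03g22900) had 59.9, 61.1 and 60.8 CPM in osino80 libraries 1 to 3, against 119, 116 and 121 CPM in WT libraries 1 to 3 (log2 fold change -0.97 ± 0.03, SE; edgeR adjusted p = 2.56e-115). Of 6 green leaf markers 5 were analysed, and together they took 40419 to 41704 CPM in osino80 and 40454 to 41268 CPM in WT. The sum holds changes in both directions. Singly, 4 of the 5 passed (edgeR adjusted p under 0.05), as did 50.3% of all tested genes of at least 10 CPM. RBCS1, RBCS2 and RBCS4 were lower, at log2 fold changes of -0.09, -0.09 and -0.05. CAB2R was higher, at 0.17, and CAB1R did not pass. The 4 root markers summed to 20.5 to 21.2 CPM in osino80 and 16.1 to 17.3 CPM in WT. The silicon transporter gene Lsi1 made up most of that, at 19.7 ± 0.511 CPM in osino80 and 15.4 ± 0.633 CPM in WT (SD, n = 3 each). The root silicon efflux transporter gene Lsi2 had 0 counts in each osino80 library and 12, 14 and 8 counts in the WT libraries. The seedling libraries thus held abundant leaf marker transcripts and few root marker transcripts other than Lsi1. In such bulk samples, fewer cells of a type and less RNA per cell cannot be told apart.

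The family was broadly expressed in both genotypes. A mean of at least 1 TPM in either genotype was reached by 26 of the 30 members. IAA22 was among them through osino80 only, at 1.41 ± 0.412 TPM there and 0.633 ± 0.553 TPM in WT (SD, n = 3 each). IAA11 and IAA26 had counts but stayed below 1 TPM, and IAA28 and IAA29 had no count in any of the 6 libraries. If each count is a separate fragment, that allows IAA28 and IAA29 each at most 0.0490 CPM in a library (3 counts, counting error only). The limit would be higher if fragments entered as pairs of reads. In level, 4 members reached 100 TPM, 11 lay between 10 and 100 TPM, 11 between 1 and 10 TPM, and the rest below.

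IAA17 (LOC_Os05g14180) stood at the top in both genotypes. Its level was 380, 372 and 372 TPM in osino80 libraries 1 to 3, against 376, 376 and 370 TPM in WT libraries 1 to 3. This one gene made up 29.0 ± 0.389% of the summed family TPM in osino80 and 30.1 ± 0.180% in WT (SD, n = 3 each). The 6 most abundant members were IAA17, IAA21, IAA3, IAA10, IAA13 and IAA24, which together held 74.2 ± 0.513% of the family total in osino80 and 72.7 ± 0.256% in WT.

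The order of levels was similar, though not the same, in both genotypes. In osino80 it ran from IAA17 over IAA21 (166 ± 3.79 TPM), IAA3 (119 ± 3.68), IAA10 (117 ± 0.227), IAA13 (93.4 ± 3.85) and IAA24 (90.7 ± 1.96) to IAA1 (59.1 ± 1.67). In WT the corresponding levels were 142 ± 1.05 TPM for IAA21, 113 ± 1.54 for IAA3, 116 ± 0.419 for IAA10, 78.4 ± 3.05 for IAA13, 80.4 ± 1.39 for IAA24 and 73.5 ± 1.79 for IAA1 (SD, n = 3 throughout). IAA3 and IAA10 overlapped in osino80, whereas in WT every library had more IAA10 than any had IAA3. IAA14 and IAA2 changed places, without overlap within either genotype. IAA14 lay at 18.0 to 19.9 TPM in osino80 and 14.1 to 17.7 TPM in WT. IAA2 lay at 14.4 to 17.2 TPM in osino80 and 17.8 to 20.1 TPM in WT. IAA13 and IAA24 overlapped within each genotype, as did IAA19 and IAA15. Among members under 10 TPM the ranges of neighbours overlapped for the most part, so their order is not resolved.

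**Figure D1:**
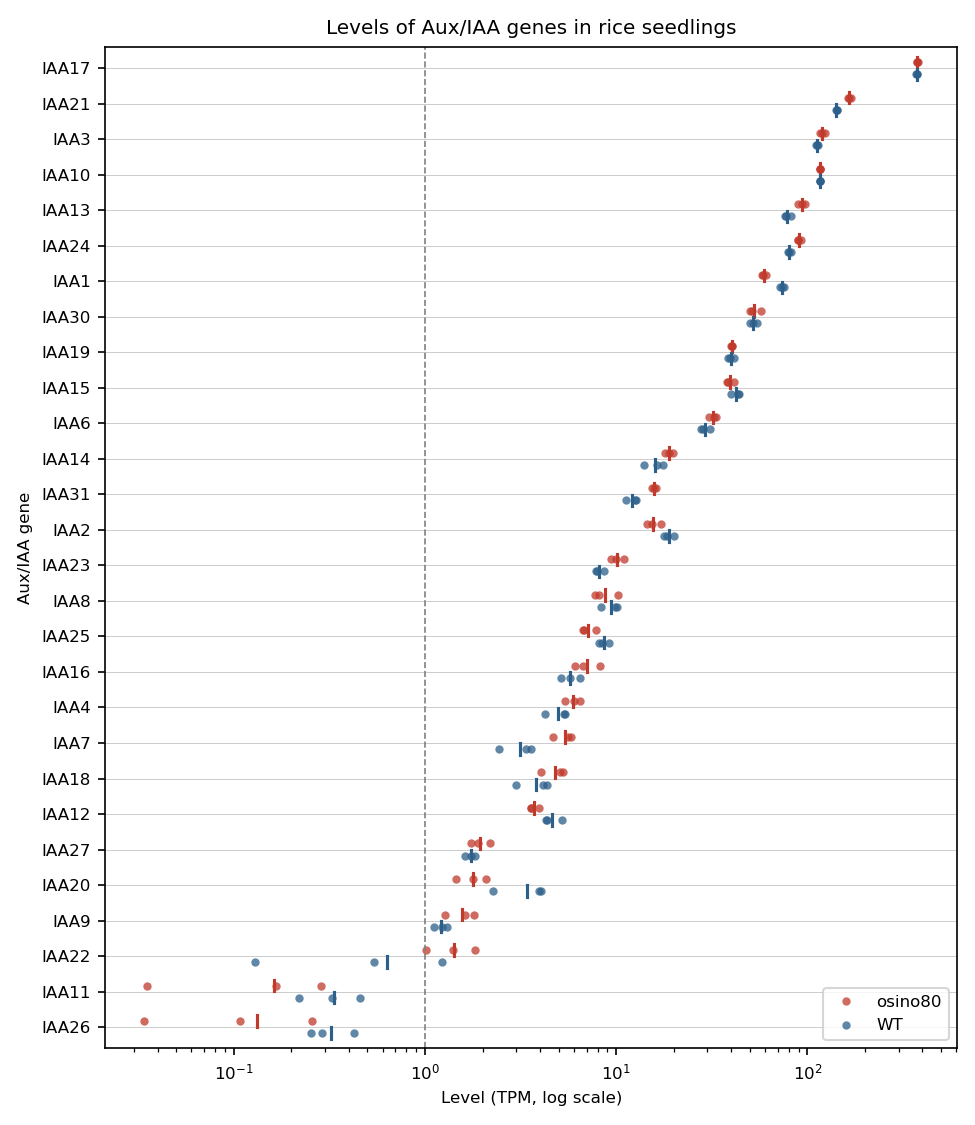
Level of each Aux/IAA gene with counts in TPM (log axis), 3 osino80 and 3 WT libraries per gene; points are libraries, ticks are means, and the dashed line marks 1 TPM. The family spans from IAA17 near 375 TPM in both genotypes to IAA11 and IAA26 below 1 TPM; IAA28 and IAA29, at 0 in every library, are not drawn.

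The summed level of the family was slightly higher in the mutant, at 1294, 1288 and 1302 TPM in osino80 libraries 1 to 3, against 1246, 1245 and 1238 TPM in WT libraries 1 to 3. The groups did not overlap. By member, the mean of osino80 minus that of WT was 23.9 TPM for IAA21, 15.0 TPM for IAA13, 10.3 TPM for IAA24 and 6.82 TPM for IAA3. IAA1 went the other way, with a difference of -14.3 TPM. These are levels per length as deposited, given as a description of the sum.

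The comparison of genotypes asks which of these repressor genes differ when OsINO80 is mutated. In osino80, 10 of 27 tested members were higher, 5 were lower and 12 did not pass (edgeR adjusted p under 0.05). Most of the changes were small: 12 of the 15 were under 1.5-fold, and only IAA22, IAA7 and IAA20 went past it. IAA20 fell to 0.490 of its WT level, IAA7 rose 1.69-fold, and IAA22, which is barely expressed, rose 3.44-fold. Over the tested members the log2 fold changes had a median of 0.12 and a median size of 0.24, beside a median of 0.00 and a median size of 0.16 over all 24914 tested genes.

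Such calls were common in this comparison, since 37.6% of all tested genes passed, 18.4% higher and 19.1% lower. Calls of at least 1.5-fold made up 7.32% of all tested genes. The members' share, 55.6%, was above that of all genes. Calls depend on depth, however: among genes of at least 10 CPM 50.3% passed, and 11 of the 15 members at that level did. Below 10 CPM 24.3% of genes passed, and 4 of 12 members did. The CPM of the genotypes did not overlap in 13 members, a share of 48.1%, which is close to the 45.7% of all tested genes without overlap. By direction 9 of these members were higher and 4 lower, whereas all tested genes were split evenly (22.8% higher, 22.9% lower). This lean among 13 members was not tested. The 9 include IAA4, which did not pass, and IAA22, whose groups overlapped in TPM. The split at 10 CPM was chosen after the data were seen.

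**Figure D2:**
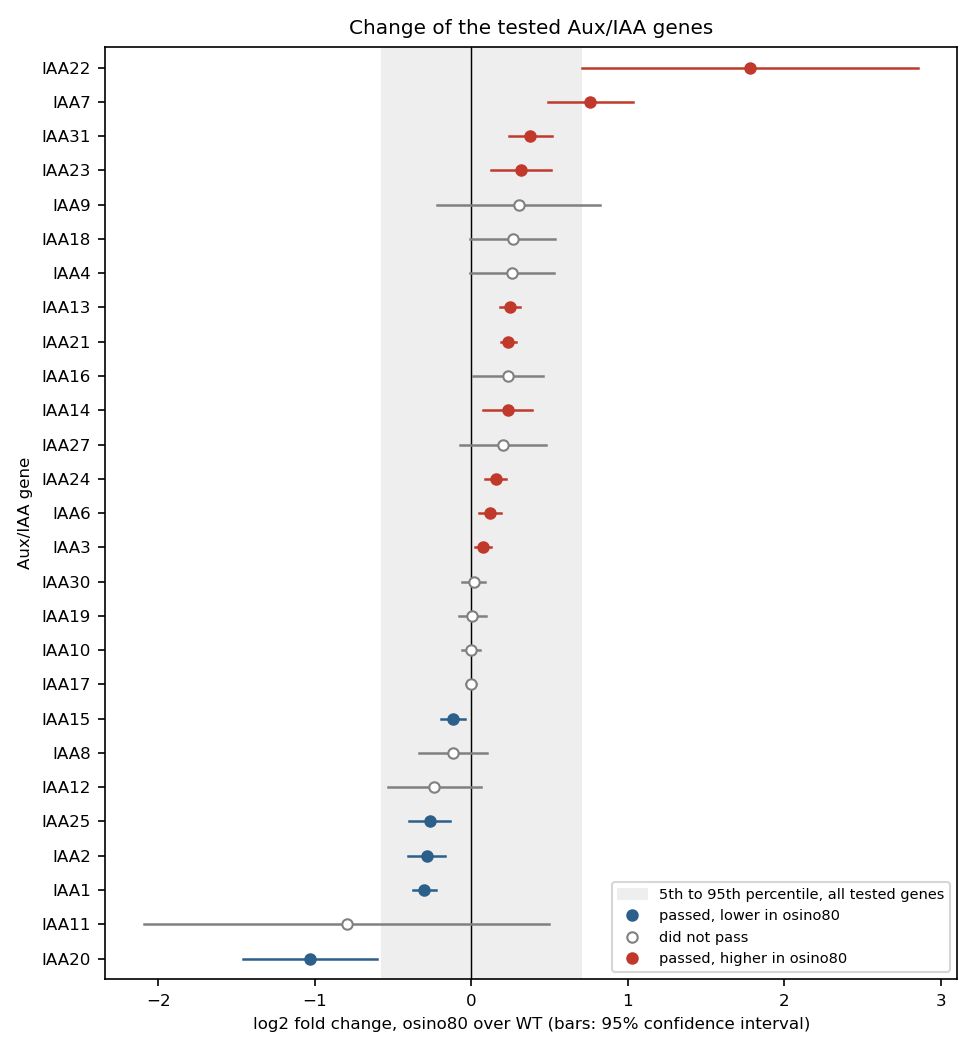
Log2 fold change, osino80 over WT, of the 27 tested Aux/IAA genes with 95% confidence intervals from edgeR; filled points passed (adjusted p under 0.05), open points did not, and the grey band spans the 5th to 95th percentile of all tested genes. IAA22 and IAA7 lie above the band and IAA20 below it, as does IAA11, which did not pass and has a wide interval, while IAA17, IAA10, IAA19 and IAA30 sit at 0 with narrow intervals.

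Of the members, IAA13, IAA23 and IAA11 have described roles in rice roots; IAA13 and IAA23 passed as higher in osino80, and IAA11 did not pass. IAA13 (LOC_Os03g53150), whose stabilised mutant forms fewer lateral roots, had 82.7, 84.3 and 77.9 CPM in osino80 libraries 1 to 3, against 66.6, 71.8 and 68.1 CPM in WT libraries 1 to 3. All osino80 libraries lay above all WT libraries, and the log2 fold change was 0.25 ± 0.03 (SE, edgeR adjusted p = 1.58e-12). IAA23 (LOC_Os06g39590), whose stabilised mutant fails to maintain the quiescent centre of the root tip, had 8.67, 8.49 and 9.75 CPM in osino80, against 7.44, 7.22 and 6.92 CPM in WT. The groups did not overlap here either (log2 fold change 0.32 ± 0.10, edgeR adjusted p = 0.00424). Leaving out osino80 replicate 3, its highest library, ended the IAA23 call (edgeR adjusted p = 0.0665, the highest of its alternatives, which began at 0.00199). IAA11 (LOC_Os03g43400), a lateral root gene, had only 2, 12 and 7 counts in osino80 and 14, 9 and 16 counts in WT. Its log2 fold change of -0.80 ± 0.66 did not pass, with a 95% interval from 0.235-fold to 1.41-fold. It was -0.37 without osino80 replicate 1 and -1.45 without osino80 replicate 2.

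Of the 4 root markers 2 were tested, and 1 passed: Lsi1 rose (log2 fold change 0.35 ± 0.07, edgeR adjusted p = 9.77e-07) and the aquaporin gene PIP2-5, at -0.04 ± 0.27, did not pass. The summed root marker level, 20.5 to 21.2 CPM in osino80 and 16.1 to 17.3 CPM in WT, did not overlap between genotypes, and nearly all of it was Lsi1. PIP2-3 averaged 0.0952 CPM in osino80 and 0.148 CPM in WT, and Lsi2 was at 0 in osino80. The part of root tissue in the results for IAA13 and IAA23 was not tested.

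Of the members linked to plant architecture and leaf angle, IAA1 was lower and IAA12 did not pass. IAA1 (LOC_Os01g08320), whose overexpression in rice weakens auxin responses and loosens plant architecture, had 48.1, 47.8 and 50.0 CPM in osino80 libraries 1 to 3, against 58.3, 60.7 and 60.6 CPM in WT libraries 1 to 3. The highest osino80 library was below the lowest WT library. IAA1 fell to 0.813 of its WT level (log2 fold change -0.30 ± 0.04, edgeR adjusted p = 8.95e-14), and under the 17 alternatives its log2 fold change stayed between -0.32 and -0.29. IAA12 (LOC_Os03g43410), at 2.87 ± 0.342 CPM in osino80 and 3.38 ± 0.293 CPM in WT (SD, n = 3), changed by -0.24 ± 0.15 on the log2 scale (edgeR adjusted p = 0.222). Its 95% interval ran from 0.691-fold to 1.04-fold. The groups of IAA12 overlapped in CPM but not in TPM, at 3.57 to 3.97 TPM in osino80 and 4.31 to 5.20 TPM in WT. On TPM IAA12 did not pass either (limma adjusted p = 0.0729 with a pseudocount of 1).

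Of the 4 members studied for tillering or stress tolerance, IAA20 passed as lower, IAA6 passed as higher with overlapping groups, and IAA4 and IAA18 did not pass. IAA20 (LOC_Os06g07040), linked to drought and salt tolerance, had 0.883, 1.18 and 0.980 CPM in osino80, against 2.19, 2.56 and 1.44 CPM in WT. WT library 3 was well below the other WT libraries but still above every osino80 library. The log2 fold change was -1.03 ± 0.22 (SE, edgeR adjusted p = 2.28e-05), the largest fall among the 27 tested members, and -1.23 without WT replicate 3. On log2(TPM + 1), a scale that understates changes of low genes, it was -0.65. IAA6 (LOC_Os01g53880), which affects drought tolerance and tiller outgrowth, had 58.8 ± 2.26 CPM in osino80 and 54.1 ± 2.88 CPM in WT (SD, n = 3). WT library 2, at 57.4 CPM, lay above osino80 library 2, at 56.3 CPM, so the groups overlapped. IAA6 passed at 0.12 ± 0.04 on the log2 scale (edgeR adjusted p = 0.00357), but not without WT replicate 3 (0.0633) or on TPM (limma adjusted p = 0.0624 with a pseudocount of 1), and its p lay between 0.000340 and 0.0633 over all alternatives. IAA4, which widens the tiller angle when overexpressed, and IAA18, linked to salt tolerance, had log2 fold changes of 0.26 ± 0.14 and 0.27 ± 0.14 and did not pass. The groups of IAA4 did not overlap, at 4.13, 4.03 and 4.70 CPM in osino80 against 3.86, 3.12 and 3.78 CPM in WT. Those of IAA18 overlapped. IAA18 did pass when osino80 replicate 1 was left out (edgeR adjusted p = 0.0496, the lowest of its alternatives, which reached 0.535).

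IAA10 (LOC_Os02g57250), a protein that rice dwarf virus stabilises in infected plants, was level between genotypes. It had 89.0, 88.1 and 87.6 CPM in osino80 libraries 1 to 3, against 88.3, 87.7 and 89.0 CPM in WT libraries 1 to 3. The 95% interval of the difference ran from 0.960-fold to 1.04-fold.

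The other abundant members whose rice role is not described here split into those that rose and those with intervals close to 1-fold. IAA21 (LOC_Os06g22870), the second most abundant, had 165, 157 and 158 CPM in osino80 libraries 1 to 3, against 136, 136 and 136 CPM in WT libraries 1 to 3. It rose 1.18-fold (log2 fold change 0.24 ± 0.02, edgeR adjusted p = 7.32e-19), the smallest p in the family. IAA24 (LOC_Os07g08460) had 67.3 ± 1.04 CPM in osino80 and 60.4 ± 1.06 CPM in WT (SD, n = 3), a rise of 0.16 ± 0.03 on the log2 scale without overlap. IAA3 (LOC_Os01g13030), at 132 ± 2.77 CPM in osino80 and 125 ± 2.81 CPM in WT, rose by only 0.08 ± 0.03 (edgeR adjusted p = 0.0119). That call was lost without osino80 replicate 3 (0.109), WT replicate 1 (0.0583) or WT replicate 2 (0.0829), in a range of 0.00602 to 0.109.

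IAA17 itself had 514, 500 and 498 CPM in osino80 libraries 1 to 3, against 508, 507 and 501 CPM in WT libraries 1 to 3. The groups overlapped, and the 95% interval of the difference ran from 0.975-fold to 1.02-fold. IAA19 (0.945-fold to 1.07-fold) and IAA30 (0.960-fold to 1.06-fold) likewise did not pass. Of the 15 members of at least 10 CPM these 3 and IAA10 were the only ones that did not.

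Among the mid-level members IAA31 and IAA14 rose and IAA2, IAA25 and IAA15 fell. IAA31 (LOC_Os12g40900) had 17.7, 16.8 and 18.3 CPM in osino80 libraries 1 to 3, against 13.5, 14.2 and 13.1 CPM in WT libraries 1 to 3, a 1.30-fold rise (log2 fold change 0.38 ± 0.07, edgeR adjusted p = 1.05e-06) without overlap. IAA2 (LOC_Os01g09450) had 20.4, 17.4 and 18.7 CPM in osino80, against 24.3, 22.2 and 22.4 CPM in WT, and IAA25 (LOC_Os08g01780) had 14.3, 14.9 and 17.2 CPM in osino80, against 18.3, 19.3 and 18.3 CPM in WT. In both genes every osino80 library was below every WT library. They fell to 0.820 and 0.832 of their WT levels (edgeR adjusted p = 2.09e-05 for IAA2 and 0.000454 for IAA25). Both stayed past the threshold in all 17 alternatives.

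IAA14 and IAA15 are less secure. IAA14 (LOC_Os03g58350) averaged 12.6 ± 0.830 CPM in osino80 and 10.7 ± 1.29 CPM in WT (SD, n = 3), with WT library 1 inside the osino80 range. Its log2 fold change of 0.23 ± 0.08 (edgeR adjusted p = 0.0143, range 0.00303 to 0.237) was 0.18 without osino80 replicate 2 (0.130) and 0.14 without WT replicate 2 (0.237), and passed in neither case. IAA15 (LOC_Os05g08570) averaged 45.5 ± 2.01 CPM in osino80 and 49.4 ± 1.86 CPM in WT, and changed by -0.12 ± 0.04 (edgeR adjusted p = 0.0111, range 0.00362 to 0.122). Its call was lost without osino80 replicate 3 (0.102), WT replicate 1 (0.0618) or WT replicate 3 (0.0644), and on TPM.

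**Figure D3:**
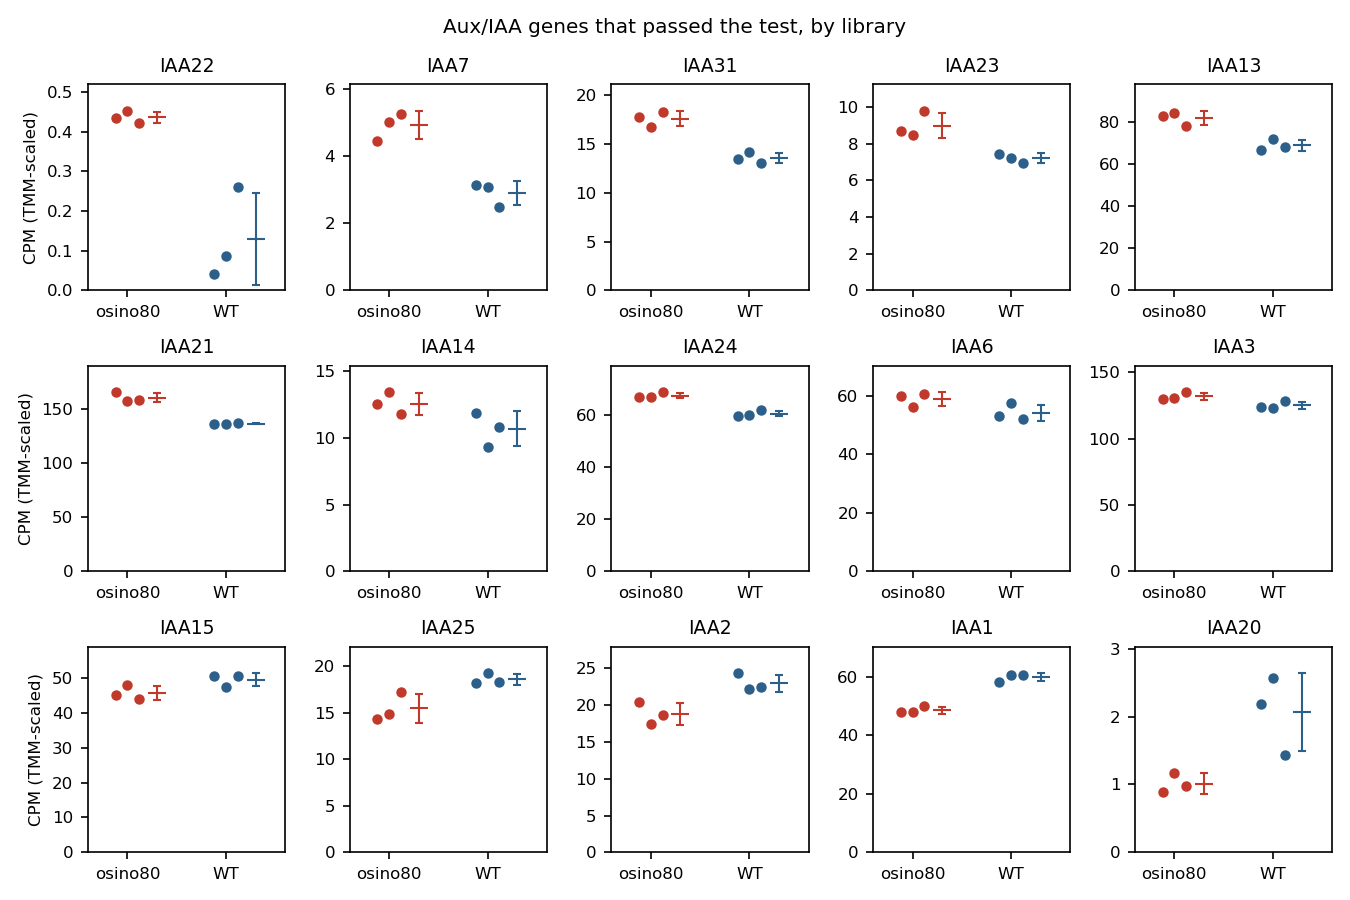
TMM-scaled CPM of the 15 Aux/IAA genes that passed the test, in 3 osino80 and 3 WT libraries each (axes from 0); points are libraries, bars show mean ± SD, and genes run from the largest rise to the largest fall. IAA7, IAA31, IAA23, IAA13, IAA21, IAA24 and IAA3 are separated upwards and IAA25, IAA2, IAA1 and IAA20 downwards, while the groups of IAA14, IAA6 and IAA15 overlap and the WT libraries of IAA22 differ widely.

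The largest rises in the family were in members of low level. IAA7 (LOC_Os02g13520) had 4.47, 5.04 and 5.28 CPM in osino80 libraries 1 to 3, against 3.13, 3.09 and 2.48 CPM in WT libraries 1 to 3. The groups were clearly apart, in TPM as well, and the log2 fold change of 0.76 ± 0.14 (edgeR adjusted p = 5.58e-07) passed in all 17 alternatives. IAA22 (LOC_Os06g24850) had 27, 28 and 28 counts in osino80, against 3, 6 and 16 counts in WT. WT library 3 held most of the WT counts, and in TPM it fell inside the osino80 range. The log2 fold change was 1.78 ± 0.55 (edgeR adjusted p = 0.00470, range 0.000810 to 0.0817). It was 2.75 without WT replicate 3 (0.000810) and 1.34 without WT replicate 1 (0.0767), and it did not pass on TPM (limma adjusted p = 0.0559 with a pseudocount of 1 and 0.0817 with 0.1).

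Of the remaining low members none passed. IAA16 changed by 0.23 ± 0.11, IAA9 by 0.30 ± 0.26, IAA27 by 0.20 ± 0.14 and IAA8 by -0.12 ± 0.11 on the log2 scale; IAA16 did pass when osino80 replicate 3 was left out (edgeR adjusted p = 0.0432, the lowest of its alternatives, which reached 0.515). Their 95% intervals, not adjusted for the number of genes, were 1.01-fold to 1.37-fold for IAA16, 0.861-fold to 1.77-fold for IAA9, 0.953-fold to 1.39-fold for IAA27 and 0.792-fold to 1.07-fold for IAA8. Over the 17 alternatives the values ran from 0.12 to 0.31 for IAA16, 0.18 to 0.41 for IAA9, 0.10 to 0.31 for IAA27 and -0.23 to -0.05 for IAA8, without a turn of direction. IAA26 had 4, 7 and 2 counts in osino80 and 18, 10 and 8 counts in WT, and was not tested.

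The neighbours IAA11 and IAA12 differed in level, as did IAA30 and IAA31. In the reference gene table no protein-coding gene lies between IAA11 and IAA12 or between IAA30 and IAA31. IAA12 had 3.70 ± 0.231 TPM in osino80 and 4.62 ± 0.497 TPM in WT, while its neighbour IAA11 had 0.162 ± 0.125 TPM in osino80 and 0.335 ± 0.120 TPM in WT (SD, n = 3). IAA30 had 52.7 ± 3.66 TPM in osino80 and 52.0 ± 2.07 TPM in WT, against 15.7 ± 0.443 TPM in osino80 and 12.1 ± 0.740 TPM in WT for IAA31. IAA27, IAA28 and IAA29 follow each other in locus number; IAA27 had 1.94 ± 0.237 TPM in osino80 and 1.74 ± 0.105 TPM in WT, and the other two had no count.

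The changes of these neighbours are given as ratios of their CPM within a library, which are not per length, as a description of pairs looked at after their values were seen. The log2 ratio of IAA31 to IAA30 was -1.51, -1.62 and -1.65 in osino80 libraries 1 to 3, against -2.02, -1.88 and -1.98 in WT libraries 1 to 3. The groups did not overlap, with a mean difference of 0.36. The log2 ratio of IAA12 to IAA11 was 6.35, 3.82 and 4.95 in osino80, against 4.11, 4.84 and 3.58 in WT, and the groups overlapped. Whether reads shared by similar members were counted, split or dropped is not stated in the labels.

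The rest of the auxin pathway was read from lists of published loci. Of the TIR1/AFB receptor genes, AFB2 (LOC_Os04g32460) had 95.8 ± 3.01 CPM in osino80 and 101 ± 5.26 CPM in WT (SD, n = 3), or -0.08 ± 0.03 on the log2 scale (edgeR adjusted p = 0.0272). That call was lost without osino80 replicate 1 (0.205), osino80 replicate 3 (0.0678) or WT replicate 2 (0.486), as well as with DESeq2 and in TPM; over all alternatives p lay between 0.00569 and 0.486. TIR1 (LOC_Os05g05800), at 28.0 ± 1.75 CPM in osino80 and 28.3 ± 1.40 CPM in WT, did not pass, with a 95% interval from 0.922-fold to 1.06-fold. The direction of TIR1 turned when osino80 replicate 2 or WT replicate 1 was left out.

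All 3 TOPLESS-type corepressor genes passed with small changes in both directions, all at a level of over 10 CPM, where 50.3% of all tested genes passed. The sources number these genes differently, so they are given by locus: the reference table lists the gene on chromosome 1 as TPR1 and TPR2, and that on chromosome 3 as TPR3 and TPR1. LOC_Os01g15020 rose by 0.14 ± 0.02 on the log2 scale (edgeR adjusted p = 1.12e-09), at 251 ± 4.42 CPM in osino80 and 228 ± 5.19 CPM in WT. LOC_Os03g14980 fell by 0.10 ± 0.02 on the log2 scale (edgeR adjusted p = 2.61e-06), at 311 ± 1.26 CPM in osino80 and 334 ± 4.41 CPM in WT. LOC_Os08g06480 (ASP1) had 217 ± 3.88 CPM in osino80 and 208 ± 2.70 CPM in WT (log2 fold change 0.06 ± 0.02, edgeR adjusted p = 0.0232). The ASP1 call was lost without osino80 replicate 3 (0.160), WT replicate 1 (0.104) or WT replicate 3 (0.0802), in TPM, and when low counts were not filtered; over all alternatives p lay between 0.00884 and 0.160.

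The ARFs, the transcription factors that Aux/IAA proteins repress, were called about as often as all genes. Of 25 listed genes 24 were tested, of which 5 rose, 4 fell and 15 did not pass, a share of 37.5% beside 37.6% of all tested genes. At 10 CPM or more 9 of 21 ARFs passed, beside 50.3% of all genes at that level. The median log2 fold change was -0.01 and the median size 0.07, against 0.24 for the Aux/IAA members. These sizes are not matched for depth, since 3 of the 24 ARFs but 12 of the 27 Aux/IAA members lay under 10 CPM. ARF15, at -0.18 ± 0.03 on the log2 scale (edgeR adjusted p = 4.36e-10), and ARF23, at -0.14 ± 0.02 (edgeR adjusted p = 1.02e-09), had the smallest p. No ARF gene that passed reached 1.5-fold.

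Of the auxin synthesis genes 9 of 10 were tested, 1 rose, 1 fell and 7 did not pass. That is a share of 22.2% beside 37.6% of all tested genes, read here as a description of 9 genes. Under 10 CPM lay 8 of the 9, of which 1 passed, beside 24.3% of all genes at that level. FIB, a tryptophan aminotransferase gene of the first step, had 16.1 ± 0.316 CPM in osino80 and 13.7 ± 0.660 CPM in WT, or 0.23 ± 0.07 on the log2 scale (edgeR adjusted p = 0.00521). It did not pass without WT replicate 2 (0.0522, range 0.00178 to 0.0522). YUC5, one of the YUCCA flavin monooxygenase genes of the last step, changed by -0.42 ± 0.16 (edgeR adjusted p = 0.0313, range 0.0149 to 0.189). The YUC5 call held when osino80 replicate 1 or WT replicate 3 was left out but was lost without osino80 replicate 2 (0.114), osino80 replicate 3 (0.0954), WT replicate 1 (0.185) or WT replicate 2 (0.0769), and on TPM.

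In the list of GH3 genes, which attach amino acids to auxin or jasmonate, and the auxin dioxygenase gene DAO, 10 of 14 were tested. Of these 2 rose and 4 fell, a share of 60.0% beside 37.6% of all tested genes, read here as a description of 10 genes. GH3-11 had 6.57 ± 0.323 CPM in osino80 and 11.4 ± 0.700 CPM in WT (SD, n = 3), or -0.80 ± 0.09 on the log2 scale (edgeR adjusted p = 1.52e-15). GH3-5, the jasmonate-conjugating JAR1 gene, rose by 0.19 ± 0.02 (edgeR adjusted p = 9.50e-13). GH3-2, GH3-8, DAO and GH3-3 are named here after their values were seen. GH3-2, which conjugates auxin, fell to 0.485 of its WT level, with 1.96, 1.82 and 2.26 CPM in osino80 libraries 1 to 3, against 4.38, 4.01 and 4.07 CPM in WT libraries 1 to 3 (edgeR adjusted p = 6.29e-10). GH3-8, another auxin-conjugating gene, had 12, 30 and 20 counts in osino80 and 60, 59 and 34 counts in WT (log2 fold change -1.19 ± 0.40, edgeR adjusted p = 0.0107). Its call was lost without osino80 replicate 1 (0.0753), WT replicate 1 (0.0530) or WT replicate 2 (0.0564), in a range of 0.00387 to 0.0753. DAO, at -0.21 ± 0.07 (edgeR adjusted p = 0.0114, range 0.000412 to 0.195), lost its call without osino80 replicate 3 (0.0873), WT replicate 1 (0.113) or WT replicate 2 (0.137) and on TPM. GH3-3 rose by 0.28 ± 0.05 on the log2 scale.

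**Figure D4:**
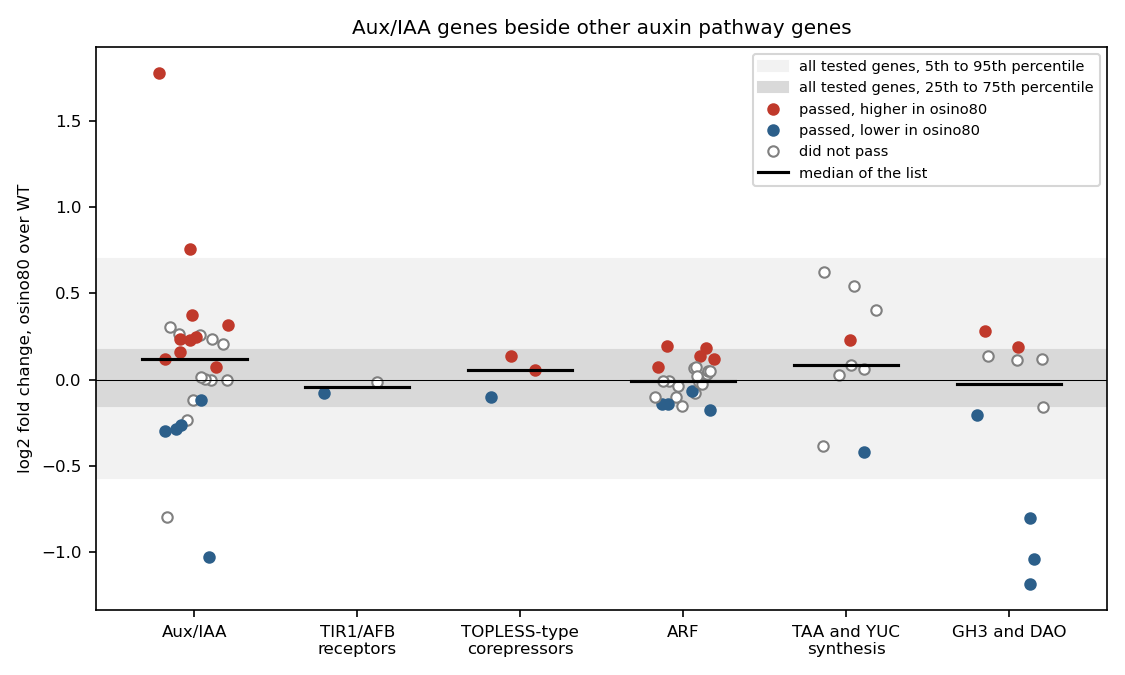
Log2 fold change, osino80 over WT, of each tested gene of the Aux/IAA family and of 5 other auxin lists; filled points passed, open points did not, black lines are list medians, and the bands show where all tested genes lie. Aux/IAA genes spread from -1.03 (IAA20) to 1.78 (IAA22) with a median of 0.12, the ARF genes stay within -0.18 to 0.19, and 3 GH3 genes lie below -0.8.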

How the data were processed

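Poly(A) RNA was sequenced from 3 libraries per genotype with the KAPA stranded mRNA-seq kit, per the labels' protocols. The authors deposited raw counts per locus and TPM. Reads went through Cutadapt, HISAT2, SAMtools and featureCounts, per the submitters' processing notes. Not given in the sources used here: versions, genome build, annotation, strand setting and the making of TPM. Counts between 1 and 20 were even in 82.4% to 83.7% of cases per library. That would arise if each fragment entered as a pair of reads, in which case counting error is understated. The floor of 3 counts covers counting error only, while the edgeR intervals also carry variation among the libraries. Halved counts were one alternative.

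The test was edgeR 4.0.16 (R 4.3.3) on all 6 libraries (filterByExpr, TMM, glmQLFit with robust=TRUE, two-sided, Benjamini-Hochberg over 24914 genes, threshold 0.05). Standard errors (SE) come from the F statistic, as the absolute log2 fold change over the root of F. The fit was also run on counts simulated from its own model and dispersions, which cannot test whether that model holds for these data. Alternatives were limma 3.58.1 and DESeq2 1.42.0, other scalings and filters, TPM with pseudocounts of 1 and 0.1, and each library left out.

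Named genes were all Aux/IAA members, the receptor, corepressor and mutated genes, and up to 2 genes of smallest p in each other list. Members, lists and the rule were chosen with earlier results of these data known, and list loci came from general knowledge. The reference table (assembly ASM3414082v1) gave 28 of 31 member names on the chromosome of the locus number, and all 41 same-chromosome pairs in the same order; IAA22, IAA27 and IAA28 were not found. Of 54 pathway names, 37 matched by chromosome, 16 were not found and ASP1 was a name on another chromosome. Libraries that share a number had nearly uncorrelated deviations from their group means (r of 0.0163, 0.00360 and 0.0277) and were not treated as pairs.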

Additional observations from a re-analysis of the deposited data

How the results depend on the processing

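The counts of Aux/IAA members called stayed within 1.5 times of 15 in all 17 alternatives, from 12 to 16, and the count of all genes called likewise; so did the 26 members expressed, at thresholds of 0.5 or 2 TPM, at 1 CPM and without each library. No called member turned direction. Calls were lost on TPM (IAA6, IAA15 and IAA22) or by leaving out a library (IAA3, IAA6, IAA14, IAA15, IAA22 and IAA23), as given above; the cause was not tested. With the replicate number as a block, which the labels do not tie to shared plants or batches, 15 members passed and all 15 calls were kept, among them IAA22 at 1.91; each osino80 library correlated best with the WT library of its own number, though all 3 correlations were under 0.1. Directions turned only in genes near 0 that did not pass. IAA10, at -0.0011, was 0.00084 with median-of-ratios scaling, 0.0022 with upper-quartile scaling, 0.00050 with DESeq2, 0.0011 with halved counts, 0.0105 on log2(TPM + 1) and 0.0106 on log2(TPM + 0.1). IAA17, at -0.0027, was 0.00063 with upper-quartile scaling and 0.0039 on TPM with either pseudocount. Without each library in turn IAA10 ranged from -0.0069 to 0.0040, IAA17 from -0.0168 to 0.0057, IAA19 from -0.0122 to 0.0275, IAA30 from -0.0434 to 0.0505 and TIR1 from -0.0444 to 0.0347. With halved counts IAA11 was not tested. Depth limits the members of few counts: IAA11, IAA22 and IAA26 had at most 28 counts in any library.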
